A study of Rattus norvegicus with 6 samples.

Results

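Genes of DNA replication and S phase were followed in cultured rat oligodendrocyte progenitors (OPCs), dividing cells that later become myelinating oligodendrocytes. The set was a fixed list of 52 gene symbols, drawn up by function, with earlier results of these data known. It held factors that license replication origins, the replicative helicase, DNA polymerases, the sliding clamp and its loader, and single-strand binding proteins. It also held enzymes of flap removal and ligation, enzymes that supply nucleotides, chromatin factors of the fork, and regulators of S phase entry. A gene entered where the platform annotation gave it a probe set of its own with values, and the probe set with the highest mean over all arrays stood for it. This left 46 of the 52, out of 13949 genes measured. Mcm3, Mcm4, Dbf4, Pole2, Chaf1a and Dtl had no such probe set and were not analysed here.

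The 3 control samples were unstimulated OPCs, and the 3 fibrinogen samples were OPCs kept for 12 h with fibrinogen, a plasma protein of blood clotting that enters nervous tissue through leaking vessels. All cells came from rat pups on postnatal day 1 to 2 and had recovered for 2 days in DMEM with N2, B27, pen/strep, NT3 and PDGF, of which PDGF is a mitogen for these cells. The dose of fibrinogen and the strain are not given in the sources used here, nor whether replicates were separate cultures, so the p-values weigh differences against a spread among samples that could be purely technical. Each sample was hybridised to 1 Affymetrix array, whose values are log2 levels. The series title names BMP signaling as activated by fibrinogen, and says nothing of replication.

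DNA is copied once per cell cycle. The origin recognition complex, Cdc6 and Cdt1 load the Mcm2 to Mcm7 ring onto DNA in G1, and kinases then recruit Cdc45 and the GINS complex to start the helicase. DNA polymerase alpha with its primase begins each strand, polymerases delta and epsilon extend it with the clamp Pcna, and RPA covers the exposed single strand. E2F transcription factors, released when the retinoblastoma proteins are phosphorylated, switch on many of these genes before S phase, so their RNA is high in dividing cells such as OPCs under PDGF. In RNA from a whole culture, fewer cells in S phase and less RNA per cell cannot be told apart.

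The promoters show a feature that the list did not use. RefSeq promoter sequences of assembly GRCr8, each 300 bases long with 250 before and 50 after the start site, matched 39 of the 46 genes. They were searched on both strands for the E2F words TTTCCCGC, TTTCGCGC, TTTGCCGC and TTTGGCGC. At least 1 word was found in 15 of the 39 promoters (38.5%), against 618 of 27457 promoters in the whole table (2.25%). Among genes tested on the arrays, a closer background, it was 363 of 11506 (3.15%). All measured subunits of the Mcm ring, Mcm2, Mcm5, Mcm6 and Mcm7, held a word, and Mcm10, which helps to activate the helicase, did not. The CCAAT box, a binding word of NF-Y, was in 23 of the 39 (59.0%) against 37.7% of all promoters and 38.2% of those of tested genes. TTTGAA, a form of the CHR element of mitotic promoters, was in 3 of the 39 (7.69%) against 18.1% and 14.7%. A word match describes the letters of a window and is not a measured binding site.

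The 250 bases before the start are shown for 6 genes, 5' to 3' on the strand of the gene, with E2F words in capitals. Pola1, Gins1 and Mcm6 hold words and fell with fibrinogen, and Mcm5 and Mcm2 hold words and did not pass the test. Cdc45 holds none of the exact words and fell, and near matches were not searched. GCGCCAAA in Pola1 is TTTGGCGC read on the other strand, and a run of 12 capitals holds 2 overlapping matches, 1 on each strand.
Pola1, chrX:62342356-62342605, minus strand: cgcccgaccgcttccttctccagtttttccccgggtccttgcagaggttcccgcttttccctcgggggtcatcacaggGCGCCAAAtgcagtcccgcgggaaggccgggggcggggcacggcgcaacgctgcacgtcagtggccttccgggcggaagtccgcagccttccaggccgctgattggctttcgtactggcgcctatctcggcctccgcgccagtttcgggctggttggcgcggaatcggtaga
Gins1, chr3:160184670-160184919, plus strand: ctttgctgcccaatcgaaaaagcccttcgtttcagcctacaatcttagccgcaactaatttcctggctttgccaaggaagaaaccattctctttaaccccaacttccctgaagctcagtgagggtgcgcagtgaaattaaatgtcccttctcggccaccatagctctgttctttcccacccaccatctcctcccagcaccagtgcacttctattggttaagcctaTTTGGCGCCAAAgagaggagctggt
Mcm6, chr13:42404353-42404602, minus strand: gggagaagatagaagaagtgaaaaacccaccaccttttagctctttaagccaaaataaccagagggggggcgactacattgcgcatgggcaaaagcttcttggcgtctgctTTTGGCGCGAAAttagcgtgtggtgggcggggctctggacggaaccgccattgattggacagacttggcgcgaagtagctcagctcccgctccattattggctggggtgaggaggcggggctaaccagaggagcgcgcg
Mcm5, chr19:13488563-13488812, plus strand: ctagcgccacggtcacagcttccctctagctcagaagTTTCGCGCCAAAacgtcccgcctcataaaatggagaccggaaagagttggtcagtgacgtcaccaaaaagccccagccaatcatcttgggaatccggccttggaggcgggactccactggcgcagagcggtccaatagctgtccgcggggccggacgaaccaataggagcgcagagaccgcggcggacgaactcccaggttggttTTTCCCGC
Mcm2, chr4:122918095-122918344, minus strand: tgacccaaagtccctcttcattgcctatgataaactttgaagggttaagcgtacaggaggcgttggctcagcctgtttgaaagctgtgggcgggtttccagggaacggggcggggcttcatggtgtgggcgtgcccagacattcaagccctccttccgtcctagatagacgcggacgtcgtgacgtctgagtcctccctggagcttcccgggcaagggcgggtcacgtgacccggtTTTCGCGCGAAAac
Cdc45, chr11:95689928-95690177, plus strand: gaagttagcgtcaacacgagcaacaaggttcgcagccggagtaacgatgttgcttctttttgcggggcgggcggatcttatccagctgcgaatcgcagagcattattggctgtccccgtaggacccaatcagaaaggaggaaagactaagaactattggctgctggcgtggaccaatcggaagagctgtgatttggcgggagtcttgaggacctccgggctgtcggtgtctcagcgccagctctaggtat
The first base of the word nearest the start lies at -172 in Pola1, -21 in Gins1, -135 in Mcm6, -8 in Mcm5 and -10 in Mcm2, where -1 is the base before the start. Cdc45 has 4 CCAAT boxes in this window, at -146, -126, -96 and -78.

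Fibrinogen lowered the RNA of 6 of the 46 replication genes and raised that of 0 (limma, Benjamini-Hochberg adjusted p under 0.05 over all genes). The 6 were Pola1, Gins1, Cdc45, Mcm6, Rpa2 and Prim1, which were left with 64.6% to 74.4% of their control levels. They made up 13.0% of the set, where 1.29% of all genes tested fell and 1.81% rose. At an unadjusted p under 0.05, 27 of the 46 (58.7%) were lower and 0 higher, against 7.46% of all genes lower and 8.12% higher. Of the 46, 45 had a log2 change below 0, against 51.5% of all genes, and the exception was Orc1. The median log2 change of the set was -0.25, or 84.3% of control, and that of all genes was -0.0033. The members were measured on the same 6 arrays and are not independent of each other.

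For 25 of the 46 genes (54.3%) the 3 fibrinogen arrays all lay below the 3 controls, against 10.6% of all genes, and for 0 all above, against 10.7%. Control 1 stood apart in this set. It was the highest of the 6 arrays, or tied for it, for 45 of the 46 genes, all but Gins2, while this was so for 17.3% of all genes. The median deviation of the 46 genes from their control mean was 0.16 for control 1, -0.06 for control 2 and -0.09 for control 3. On the fibrinogen arrays it was -0.28, -0.30 and -0.24, below every control. The median SD between controls was 0.15 in the set and 0.08 over all genes, while between fibrinogen arrays it was 0.11 in both.

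**Figure D1:**
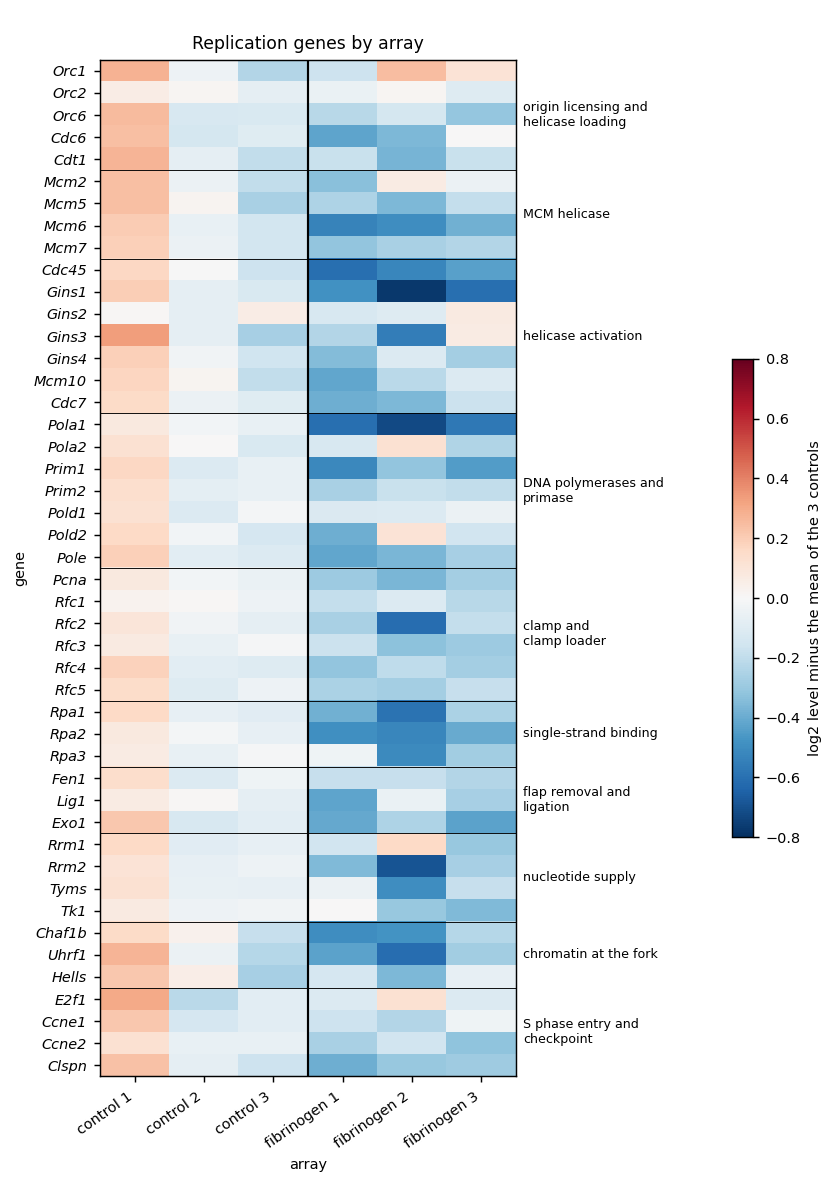
Log2 level of each of the 46 replication genes (rows, grouped by role) on each of the 6 arrays (columns), minus the mean of the 3 controls of that gene; red is above and blue below that mean. Control 1 is red in nearly every row, and the darkest blue lies in Gins1, Pola1 and Rrm2 on fibrinogen 2.

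Leaving out control 1 reduced the difference without removing it. The median log2 change was then -0.17, and 43 of the 46 genes were still below 0. The number that fell went from 6 to 1, Pola1, where 0.466% of all genes fell. At an unadjusted p under 0.05 it went from 27 to 16 (34.8%), against 5.59% of all genes. Since control 1 was the lowest control for 0 of the 46 genes, the same 25 genes had every fibrinogen array below controls 2 and 3, as did 14.7% of all genes. The number that fell was 1 without control 2, 3 without control 3, 3, 4 and 3 without fibrinogen 1, 2 and 3, and 1 without both control 1 and fibrinogen 2. Why control 1 stood apart was not tested.

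**Figure D2:**
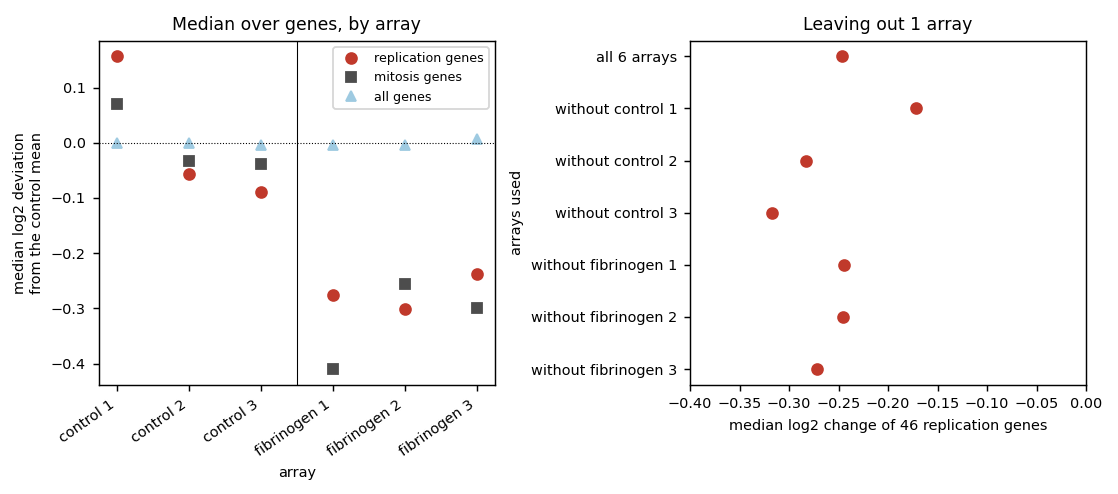
Left: median log2 deviation from the control mean for the 46 replication genes, 34 mitosis genes and all 13949 genes on each array. Right: median log2 change of the 46 genes with all arrays and without each array in turn; it is nearest 0 without control 1 (-0.17) and farthest from 0 without control 3 (-0.32).

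Of 5 genes of origin licensing, 0 were lower or higher in limma, with a median log2 change of -0.22. At an unadjusted p under 0.05 it was also 0, against 7.46% of all genes lower. Over all genes 1.29% fell and 1.81% rose at the adjusted threshold. A count of 0 in a group of 5, or in the other small role groups below, is near those shares. Orc1, the largest subunit of the origin recognition complex, had log2 levels of 6.97, 6.65 and 6.46 in controls and 6.53, 6.94 and 6.80 with fibrinogen. The groups overlap fully, and the difference was 0.06 ± 0.14 (SE, adjusted p = 0.893, limma). Orc2, another subunit, differed by -0.05 ± 0.07. Orc6, Cdc6 and Cdt1 had differences of -0.22, -0.26 and -0.24, with SEs of 0.11 to 0.14 and adjusted p-values of 0.388 to 0.418 in limma. Without control 1 the differences were nearer 0, at -0.14 for Cdc6 and -0.11 for Cdt1.

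Of the 4 measured subunits of the Mcm helicase ring, Mcm6 fell. Its log2 levels were 9.64, 9.38 and 9.29 in controls and 8.90, 8.94 and 9.05 with fibrinogen. Every fibrinogen array lay at least 0.24 below the lowest control, and the change was -0.47 ± 0.10 (SE, adjusted p = 0.0433, limma), to 72.0% of control. Mcm7 had 9.57, 9.33 and 9.23 against 9.06, 9.12 and 9.14, groups that did not overlap, with a difference of -0.27 ± 0.09 that did not pass (adjusted p = 0.203). Mcm5 differed by -0.27 ± 0.12 (adjusted p = 0.341). Mcm2, a subunit often used as a marker of licensed and dividing cells, had 8.51, 8.22 and 8.07 against 7.93, 8.33 and 8.22, and its overlapping groups differed by -0.11 ± 0.13 (adjusted p = 0.782). The call for Mcm6 was lost whichever array was left out (adjusted p from 0.0688 without control 3 to 0.125 without control 2), and the difference of Mcm2 was 0.015 without control 1 and 0.0083 without fibrinogen 1.

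The factors that turn the loaded ring into a moving helicase held 2 of the 6 genes that fell. Gins1, a subunit of the GINS complex, had log2 levels of 9.39, 9.12 and 9.07 in controls and 8.71, 8.42 and 8.59 with fibrinogen. The fibrinogen arrays lay well below the controls, and the change was -0.62 ± 0.11 (SE, adjusted p = 0.0204, limma), to 65.1% of control. Cdc45, which joins GINS on the ring, went from 8.37, 8.20 and 8.04 to 7.60, 7.68 and 7.77. Its groups were 0.27 apart at their nearest, and the change was -0.52 ± 0.10 (adjusted p = 0.0261), to 69.7% of control. The other GINS subunits are known to act in the same complex but had smaller differences that did not pass: -0.05 ± 0.08 for Gins2, -0.24 ± 0.18 for Gins3 and -0.24 ± 0.11 for Gins4. Whether Gins1 differs from them was not tested. Gins3 was among the most variable of the 46 genes, with SDs of 0.31 in both groups. Mcm10, which helps to activate the helicase, differed by -0.25 ± 0.11, and Cdc7, the kinase that triggers origin firing, by -0.31 ± 0.09 with groups that did not overlap (adjusted p = 0.35 and 0.146). Without control 1, control 2, control 3 and fibrinogen 3 in turn, the adjusted p of Gins1 was 0.0674, 0.0648, 0.0514 and 0.0574. That of Cdc45 was 0.0882, 0.106, 0.0905 and 0.0586 without control 1, control 2, fibrinogen 1 and fibrinogen 2 (limma).

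Polymerase alpha and primase, the complex that starts new strands, held another 2 of the genes that fell, both catalytic subunits. Pola1, the catalytic subunit of the polymerase, had log2 levels of 8.21, 8.11 and 8.07 in controls and 7.53, 7.41 and 7.56 with fibrinogen. The groups were 0.51 apart at their nearest, the widest gap of the 46 genes, and the change was -0.63 ± 0.08 (SE, adjusted p = 0.00386, limma), to 64.6% of control. Pola1 was the one member that passed in all 14 alternative fits, with adjusted p-values of 0.00171 to 0.0346 and changes of -0.66 to -0.55. Prim1, the catalytic subunit of primase, went from 9.54, 9.27 and 9.32 to 8.86, 9.06 and 8.93. Every fibrinogen array was below every control, and the change was -0.43 ± 0.09 (adjusted p = 0.0489), to 74.4% of control. It passed without fibrinogen 2, while the adjusted p was 0.164, 0.0992, 0.132, 0.138 and 0.126 without control 1, control 2, control 3, fibrinogen 1 and fibrinogen 3 (limma). After another quantile normalization it was 0.058.

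The accessory subunits of this complex did not pass. Prim2, the large subunit of primase, had a difference of -0.21 ± 0.08 (SE, adjusted p = 0.243, limma) with groups that did not overlap. Pola2 had 7.74, 7.62 and 7.50 in controls and 7.49, 7.74 and 7.38 with fibrinogen, overlapping groups with a difference of -0.08 ± 0.11 (adjusted p = 0.786). The difference between Pola1 and Pola2 in response was not tested, since the pair was picked on these values. Pole, the catalytic subunit of the leading-strand polymerase, went from 8.25, 7.97 and 7.95 to 7.64, 7.69 and 7.79, a difference of -0.35 ± 0.10 with no overlap that did not pass (adjusted p = 0.105). The subunits of polymerase delta, Pold1 and Pold2, had overlapping groups with differences of -0.09 ± 0.08 and -0.15 ± 0.13.

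**Figure D3:**
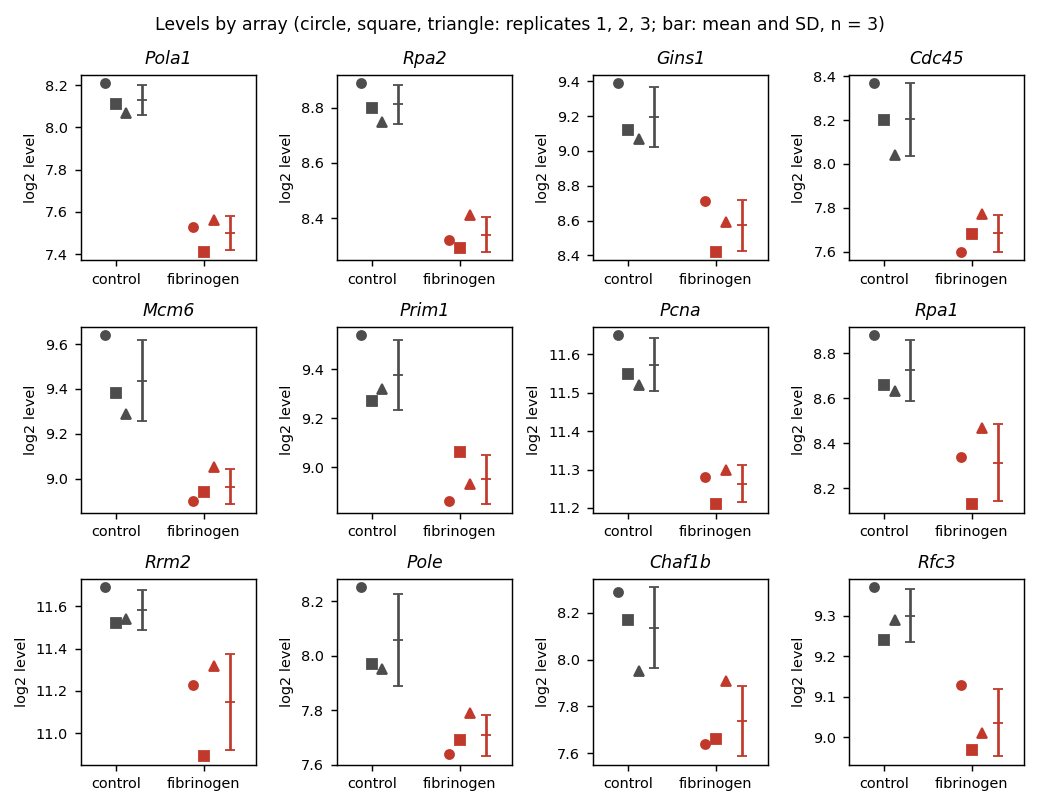
Log2 levels of the 12 replication genes with the lowest p-values on each control (grey) and fibrinogen (red) array, with group means and SDs (n = 3 each) beside the points; the axes differ between panels and do not start at 0. In all 12 the fibrinogen arrays lie below the controls, and control 1 (grey circle) is the highest point.

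RPA, the complex that coats single-stranded DNA, held the sixth gene that fell. Rpa2 had log2 levels of 8.89, 8.80 and 8.75 in controls and 8.32, 8.29 and 8.41 with fibrinogen. Its groups were tight and 0.34 apart, and the change was -0.47 ± 0.07 (SE, adjusted p = 0.0122, limma), to 72.0% of control. The adjusted p was 0.0599 without control 1 and 0.0628 without control 2. Rpa1, the large subunit that binds DNA, went from 8.88, 8.66 and 8.63 to 8.34, 8.13 and 8.47, a difference of -0.41 ± 0.11 with no overlap (adjusted p = 0.0866). Rpa3, the small subunit, differed by -0.27 ± 0.11 on the probe set used and by -0.29 ± 0.12 on its other one, and fibrinogen 2 was the lowest array on both.

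For the clamp and its loader, 0 of 6 genes passed the adjusted test in limma, where 1.29% of all genes fell and 1.81% rose. At an unadjusted p under 0.05, 6 were lower, against 58.7% of the set and 7.46% of all genes. In all 6 every fibrinogen array lay below every control, as for 54.3% of the set and 10.6% of all genes. Single-strand binding and flap removal and ligation had 2 of 3 genes each. Whether these small role groups differ was not tested. Pcna, the sliding clamp that holds polymerases on DNA, had log2 levels of 11.65, 11.55 and 11.52 in controls and 11.28, 11.21 and 11.30 with fibrinogen. The spread within each group was under 0.15, and the difference was -0.31 ± 0.07 (SE, adjusted p = 0.0578, limma), or 80.7% of control. Pcna passed in 4 of the 14 alternative fits, over which its adjusted p ran from 0.0119 to 0.207. Rfc3, a subunit of the clamp loader, went from 9.37, 9.24 and 9.29 to 9.13, 8.97 and 9.01 (difference -0.26 ± 0.08, adjusted p = 0.121). Rfc1, Rfc2, Rfc4 and Rfc5 differed by -0.17 to -0.35, with adjusted p-values of 0.165 to 0.263.

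Of 3 genes grouped under flap removal and ligation, 0 were lower or higher in limma, where 1.29% of all genes fell and 1.81% rose. At an unadjusted p under 0.05, 3 were lower, against 7.46% of all genes. Exo1, an exonuclease of mismatch repair, differed by -0.36 ± 0.10 (SE, adjusted p = 0.123), and Fen1, the flap endonuclease, by -0.20 ± 0.08, both without overlap. Lig1, the ligase that seals Okazaki fragments, differed by -0.25 ± 0.10, with fibrinogen 2 inside the control range.

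Among genes of nucleotide supply, 0 of 4 passed in limma, where 1.29% of all genes fell and 1.81% rose. At an unadjusted p under 0.05, 1 was lower, against 7.46% of all genes. Rrm2, the S phase subunit of ribonucleotide reductase, had log2 levels of 11.69, 11.52 and 11.54 in controls and 11.23, 10.89 and 11.32 with fibrinogen. All fibrinogen arrays were lower, fibrinogen 2 most of all, and the difference was -0.44 ± 0.11 (SE, adjusted p = 0.0904, limma), with -0.55 ± 0.14 on a second probe set. Without fibrinogen 2 it was -0.31. Tk1, the thymidine kinase of the salvage route, had 7.89, 7.78 and 7.79 against 7.82, 7.52 and 7.47. Fibrinogen 1 lay inside the control range, and the difference was -0.22 ± 0.10 (adjusted p = 0.349). Tyms, which makes thymidylate, differed by -0.24 ± 0.12. Rrm1, the large reductase subunit, differed by -0.10 ± 0.12, but its mean level of 5.24 was the one of the 46 below 5.51, the 95th percentile of 955 olfactory and vomeronasal receptor genes taken as background, where a log2 change is imprecise.

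Among chromatin factors of the fork, 0 of 3 passed in limma, where 1.29% of all genes fell and 1.81% rose. At an unadjusted p under 0.05, 2 were lower, against 7.46% of all genes. Chaf1b, a subunit of the complex that deposits histones behind the fork, had log2 levels of 8.29, 8.17 and 7.95 in controls and 7.64, 7.66 and 7.91 with fibrinogen. The nearest arrays of the groups were 0.04 apart, and the difference was -0.40 ± 0.11 (SE, adjusted p = 0.105, limma). Uhrf1, which guides DNA methylation to new strands, differed by -0.44 ± 0.13, an estimate with one of the wider control SDs (0.25). It was -0.30 without control 1. Hells, a chromatin remodeler, differed by -0.19 ± 0.13 with overlapping groups.

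Of the regulators of S phase entry and the fork checkpoint, 0 of 4 passed in limma. Of all genes 1.29% fell and 1.81% rose. With unadjusted p under 0.05, 2 of the 4 regulators were lower, against 7.46% of all genes. E2f1, a transcription factor that activates many replication genes, had log2 levels of 7.19, 6.67 and 6.80 in controls and 6.78, 7.01 and 6.78 with fibrinogen. Control 1 was the highest and control 2 the lowest of all arrays, so the difference of -0.03 ± 0.13 (SE, adjusted p = 0.952, limma) had no clear direction, and it was 0.12 without control 1. Ccne1, the cyclin that drives entry into S phase with Cdk2, had 8.61, 8.26 and 8.31 against 8.23, 8.16 and 8.36, overlapping groups with a difference of -0.14 ± 0.11 (adjusted p = 0.589). Ccne2 differed by -0.24 ± 0.08 and Clspn, a checkpoint adaptor at the fork, by -0.33 ± 0.11, both without overlap (adjusted p = 0.188 and 0.167). A second probe set of Clspn gave -0.55 ± 0.14.

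**Figure D4:**
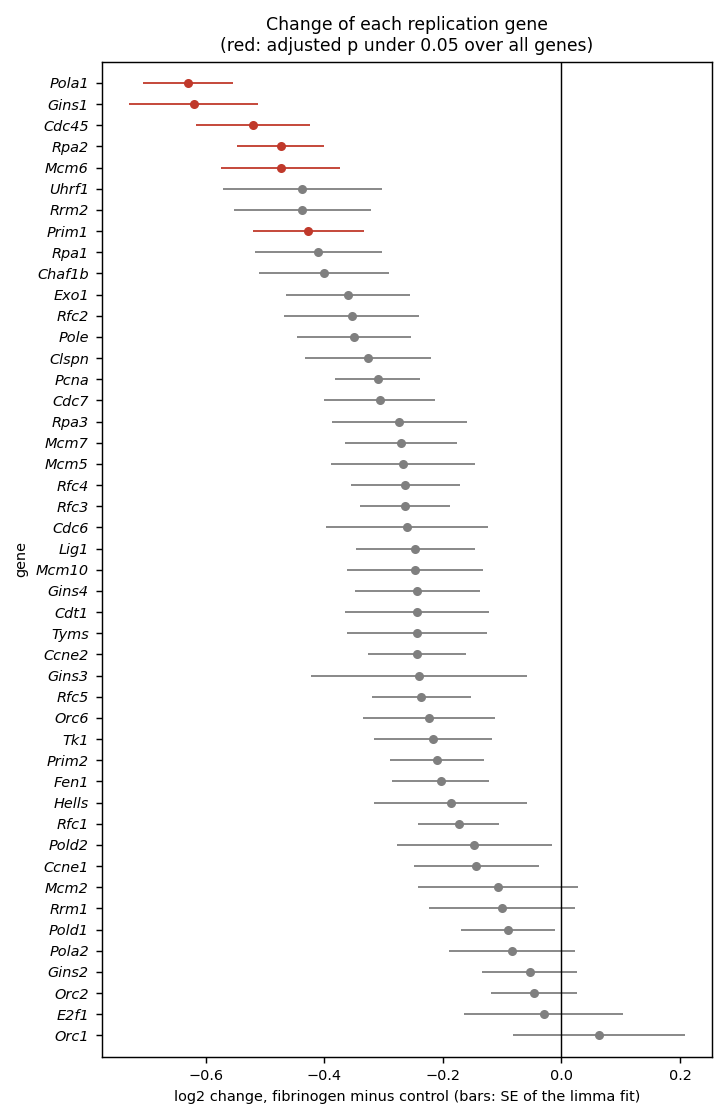
Log2 change of each of the 46 replication genes, fibrinogen minus control, with the SE of the limma fit, ordered by size; the 6 genes with an adjusted p under 0.05 are red. The changes run from -0.63 for Pola1 to 0.06 for Orc1.

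The 15 replication genes with an E2F word in the promoter had a median log2 change of -0.27, from -0.63 to -0.11. The 24 with a promoter but no word had a median of -0.23, from -0.52 to -0.05. The ranges overlap over most of their length. Of the 6 genes that fell, 4 held an E2F word (Pola1, Gins1, Mcm6 and Rpa2), against 38.5% of the set and 3.15% of tested genes. All 6 held a CCAAT box, against 59.0% and 38.2%. Cdc45 and Prim1 held no E2F word. The word of Rpa2 and the CCAAT box of Prim1 lie after the start site, at positions 8 and 6. Whether the 6 differ from the rest of the set in these words was not tested.

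Of 41 other measured genes of replication and S phase, from a list of 59 that shares 0 genes with the set, 5 fell and 0 rose in limma (12.2% lower, against 1.29% of all genes), and 36 did not pass. The log2 change was below 0 for 35 of the 41 and above 0 for 6, with a median of -0.16 and a highest value of 0.13. Rad54l, a factor of recombination repair, changed by -0.70 ± 0.11 (SE, adjusted p = 0.0122) and Dut, which removes dUTP, by -0.54 ± 0.11 (0.0350). The histone chaperones Asf1b and Nasp changed by -0.53 ± 0.08 (0.0141) and -0.35 ± 0.07 (0.0440), and Gmnn, the inhibitor of Cdt1, by -0.39 ± 0.09 (0.0487). An E2F word was in 17 of the 36 promoters found (47.2%). Control 1 was the highest array, or tied for it, for 65.9% of these 41 genes, against 17.3% of all genes. Between 1 (without control 1, control 2 or fibrinogen 1) and 5 (without fibrinogen 2) of them fell when 1 array was left out, with 2 without control 3 and 3 without fibrinogen 3, and Rad54l passed each time. Gmnn passed in 0 of these 6 fits (adjusted p = 0.0901 to 0.157), and Nasp in 1, without fibrinogen 2 (adjusted p up to 0.173 in the others). Dut did not pass without fibrinogen 1 or any single control (adjusted p up to 0.139), nor Asf1b without fibrinogen 1, control 1 or control 2 (up to 0.0692).

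Of 34 measured mitosis genes, which are transcribed later in the cycle, 10 were lower and 0 higher in limma, and 24 did not pass. The 10 made up 29.4%, where 1.29% of all genes were lower and 1.81% higher. The median log2 change of the 34 was -0.33, and 34 of 34 were below 0. Bub1, a kinase of the spindle checkpoint, changed by -0.54 ± 0.08 (SE, adjusted p = 0.00714) and Kif20b, a motor of cell division, by -0.56 ± 0.09 (0.0115). Aurkb, a kinase of chromosome segregation, changed by -0.48 ± 0.10 and the checkpoint protein Bub1b by -0.49 ± 0.09. In the promoters of the mitosis list an E2F word was in 1 of 31, the CCAAT box in 24 of 31 (77.4%) and TTTGAA in 23 of 31 (74.2%), shares whose difference from the replication genes was not tested. Control 1 was the highest array, or tied for it, for 85.3% of the 34 genes, against 17.3% of all genes. Leaving out control 1, 2 or 3 or fibrinogen 1 left 1, 2, 2 and 2 mitosis genes lower. Bub1 passed in each of these fits, Kif20b lost its call without control 1 or 3, Bub1b without control 1 or 2 or fibrinogen 1 or 2, and Aurkb whichever array was left out, with adjusted p-values of at most 0.114. Whether mitosis and replication genes differ in response was not tested.

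Among 17 measured genes that act in G1, 0 fell and 1 rose (5.88%) in limma, where 1.29% of all genes fell and 1.81% rose. At an unadjusted p under 0.05, 2 were lower (11.8%) and 3 higher, against 7.46% and 8.12% of all genes. In a list of 17 genes, 0 lower is near the share of all genes. The median log2 change of the 17 was -0.06. The gene that rose was Ccnd2, a D-type cyclin that activates Cdk4 and Cdk6. Its log2 levels were 9.15, 8.78 and 8.79 in controls and 9.91, 9.75 and 9.86 with fibrinogen, a change of 0.93 ± 0.11 (SE, adjusted p = 0.00347), or 1.91-fold, that passed in all 14 alternative fits.

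**Figure D5:**
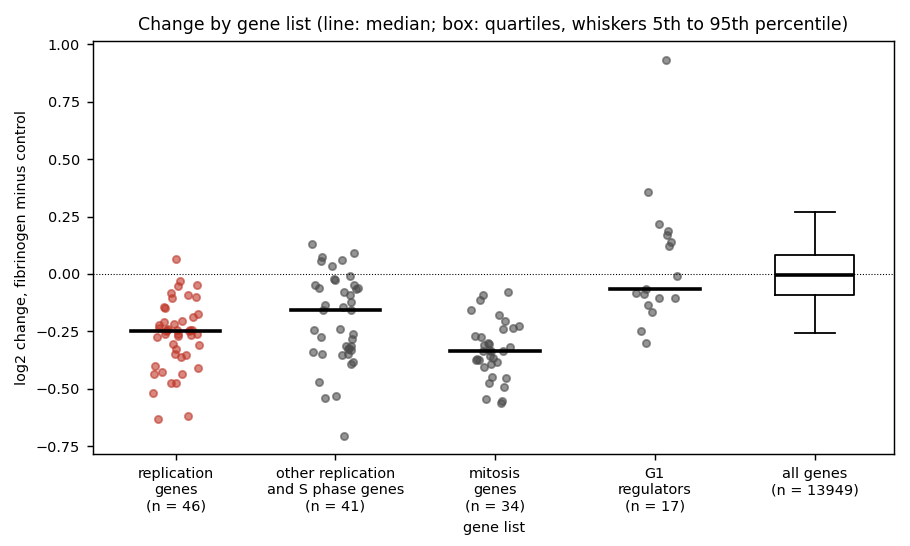
Log2 change of each gene, fibrinogen minus control, for the 46 replication genes (red), other replication and S phase genes, mitosis genes and G1 regulators, with medians as lines, beside a box of all 13949 genes. The medians are -0.25, -0.16, -0.33, -0.06 and -0.0033.

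Markers of cell types moved in the same comparison. All 13 measured OPC markers lay above the receptor percentile, and 4 fell and 0 rose in limma: Gpr17, Neu4, Pdgfra and Cspg4, with log2 changes of -0.66, -0.65, -0.40 and -0.35. Over all genes 1.29% fell and 1.81% rose. Of the 13 OPC markers 10 were below 0 and 3 above, with a median of -0.11 and a highest change of 0.52. At an unadjusted p under 0.05 (limma), 5 were lower and 1 higher. The summed linear level of the 13 was 20732 to 21576 in controls and 17879 to 18866 with fibrinogen. Of 13 astrocyte markers 4 rose and 0 fell (Gfap, Cd44, Ndrg2 and Slc1a2, with log2 changes of 1.24, 1.12, 0.96 and 0.65), and their sum went from 4266 to 4406 in controls to 5736 to 6351 with fibrinogen. Of 10 oligodendrocyte markers, Ugt8 and Cnp fell (-0.59 and -0.48) and Ermn rose (0.91), with sums of 4851 to 5352 and 4721 to 4872. The log2 change was above 0 for 7 of the 10 and below 0 for 3, with a median of 0.05. A sum is weighted to the brightest genes. The part of these markers in the lower levels of replication genes was not tested. Gpr17, Ugt8 and Cnp lost their calls without control 2 or 3 (adjusted p at most 0.0785), Pdgfra without any array but fibrinogen 3 and Cspg4 whichever array was left out (at most 0.159 and 0.179, limma).

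Few markers of other cells passed the test. Of 15 microglia and macrophage, 7 endothelial and 8 pericyte and fibroblast markers, 0 passed in limma (unadjusted p under 0.05 for 1, 0 and 1, all lower). Over all genes 1.29% fell and 1.81% rose, so 0 in lists this short is near the background share. The microglia sum was 703 to 722 in controls and 667 to 711 with fibrinogen, the endothelial sum 245 to 251 and 252 to 254, and the pericyte and fibroblast sum 456 to 492 and 441 to 484. Of these lists 6, 3 and 4 genes lay above the receptor percentile. Of 12 neuron markers 1 fell, Gad2, from a level already below that percentile (adjusted p = 0.0514 without control 3, limma), with sums of 3120 to 3149 and 3139 to 3510. The sum of 3510 was on fibrinogen 2, with 3139 and 3141 on fibrinogen 1 and 3. The median deviation of the 12 from the control mean was 0.145 on fibrinogen 2, and -0.0083 and 0.0033 on fibrinogen 1 and 3. The log2 change was above 0 for 8 of the 12 neuron markers and below 0 for 4. At an unadjusted p under 0.05 (limma), 2 were higher and 1 lower. No marker had a value of 0 on these log2 arrays, where background sets the floor.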

How the data were processed

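RNA from 6 samples, 3 control and 3 fibrinogen, was measured on 1 array each. The deposited log2 levels were taken to be normalized by the authors with RMA, a tool listed beside limma, without version or role, in the submitters' processing notes. The log2 scale was inferred from the values, RMA can compress differences, and scanner files were not used here. Of 26312 probe sets 25106 had values, of which 14700 carried 1 gene symbol, 275 several and 10131 none. The 14700 gave 13949 genes, each by its highest-mean probe set. The members' 46 symbols all matched RefSeq by Entrez ID. Per the labels, 0 columns belonged to other samples.

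Fibrinogen minus control was fitted for every gene by lmFit and eBayes of limma 3.58.1 (R 4.3.3; two-sided, no covariate, no filter on dim genes), and p-values were adjusted by Benjamini-Hochberg over all 13949 genes with a threshold of 0.05. SEs are moderated ones, and SDs are over 3 arrays. With 3 arrays a group, the smallest p of an exact permutation test is 0.1, and it was not used. Members and gene lists were chosen with earlier results of these data known, from general knowledge, and so were the promoter words. Full statistics are given for members past the threshold and the next by p up to 12, values by array also for Mcm2, Pcna, Ccne1, E2f1, Rrm2 and Tk1, and up to 4 genes per other list, with Nasp, Orc1, Mcm7 and Pola2 shown by array or named after their values were seen. Alternatives were a replicate block, median centring, quantile normalization, leaving out genes under the 30th percentile of level, probe set means, a trended robust prior, array weights and leaving out each array; leaving out control 1 and fibrinogen 2 together was added after the values were seen. The number of arrays limits the precision.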

Additional observations from a re-analysis of the deposited data

How the results depend on the processing

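The median log2 change of the 46 replication genes moved by less than 0.098 in all 14 alternatives. That limit is the SD of the set's median within groups. It comes from these same arrays, control 1 included, so fits without 1 array could hardly exceed it. The median was -0.32 to -0.17 when 1 array was left out. Leaving out 1 array gave 1 to 4 replication genes lower, 1 to 5 other replication genes lower, 1 to 12 mitosis genes lower, 1 to 2 G1 genes higher, and 55 to 173 genes lower and 96 to 263 higher over all. With array weights, which gave fibrinogen 2 the lowest weight (0.318), 276 genes were lower and 383 higher, with 8 other replication genes and 17 mitosis genes lower and 1 G1 gene lower and 2 higher. The trended robust prior gave 8 other replication genes lower, and median centring, the filter on dim genes and that prior each gave 1 G1 gene lower. Without both control 1 and fibrinogen 2, 1 replication gene, 0 other replication genes (limma) and 1 mitosis gene were lower, and 76 genes were lower and 132 higher over all. The unadjusted count of replication genes lower was then 19.

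With the replicate number as a block, 3 replication genes (Gins1, Pola1 and Rpa2) and 4 mitosis genes were lower. Whether equal numbers pair the samples is not settled by the values. The correlations of same-numbered deviations from group means were low, at 0.03, 0.02 and 0.01, although each array correlated best with its own number.

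Of 643 values of single replication genes under an alternative, 596 kept direction and side of the threshold, 30 lost a call, 5 gained one and 12 changed sign. Sign changes were in genes that had not passed: with 1 array left out, Mcm2 ran from -0.21 to 0.015, E2f1 from -0.14 to 0.12, Orc1 from -0.053 to 0.20 and Rrm1 from -0.23 to 0.0017, and without both control 1 and fibrinogen 2 Gins3 was 0.085, E2f1 0.045, Hells 0.005 and Ccne1 0.01. For the count without fibrinogen 2 and the sign changes the cause was not tested; fits without an array have fewer samples.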
